A study of Mus musculus with 3 samples.

Results

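The MAP kinase cascade genes are the 35 protein-coding genes whose names in the deposited list read Mapk, Map2k, Map3k or Map4k followed by a number. Members were taken by name alone, out of 12541 protein-coding gene names in the list, though the family was chosen with earlier results of these data known. Individual-nucleotide resolution crosslinking and immunoprecipitation (iCLIP) marks the bases at which a protein was joined to RNA by ultraviolet light. The protein was given as ZFP36L1, pulled down with a Brf1/2 antibody from total naive thymocytes of C57BL/6JBabr mice. The thymocytes had received 300 mJ/cm2 of ultraviolet light. As the antibody name reads Brf1/2, the counts were not shown to come from ZFP36L1 alone. The samples were 2 WT libraries from separate experiments and 1 DCKO library, from mice in which Zfp36l1 and Zfp36l2 were both conditionally deleted. What drives the conditional deletion was not stated in the labels.

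The deposited list pools its positions, with 1 whole-number value each and no column for the library. Neither the labels nor the header say which libraries were pooled. No value below therefore has a replicate error, no test was run, and WT was not compared with DCKO. The counts may include signal from the DCKO library, from mice with Zfp36l1 conditionally deleted, and were not shown to be ZFP36L1 crosslinks. Each value is called a crosslink count here, and a position with an authors' FDR below 0.05 is called a site. That FDR tended to be lower where other counts lay close by, so that runs of sites are partly built into the definition. Intervals are 95% Wilson intervals, and they cover counting error only. The intervals treat each count, site or gene as independent, although neighbouring sites can come from the same stretch of RNA. Intervals over counts or sites can therefore be too narrow. The level of each RNA in the cells was not measured, so a count does not separate binding from abundance.

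MAP kinase cascades are relays of protein kinases, in which a MAP4K can activate a MAP3K, a MAP3K phosphorylates a MAP2K, and a MAP2K phosphorylates a MAP kinase. The best known end points are the ERK, JNK and p38 kinases, which carry antigen receptor, cytokine and stress signals, and in developing thymocytes ERK activity takes part in beta-selection and in positive selection. ZFP36L1 belongs to a family of zinc finger proteins that bind AU-rich elements, often in 3′ untranslated regions (UTRs), and promote decay of the bound mRNA or limit its translation.

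The 35 genes held 1773 listed positions with a summed count of 2832, which was 0.440% of the 643293 counts in protein-coding genes. Their counts lay mostly in introns, at 76.3%, against 76.9% over all protein-coding genes. The 3′ UTR held 410 counts, a share of 14.5% (13.2 to 15.8), against 13.2% over all protein-coding genes. The coding label held 8.30% of the counts and the 5′ UTR 0.883%, against 9.13% and 0.809% over all genes. Segments here are those of the deposited labels. Of the 235 counts of the cascade with the coding label, 139 lay in GENCODE coding exons, 67 in other exons, 28 in a 3′ UTR and 1 in a 5′ UTR. By positions, 12.5% of those labelled coding in the cascade lay in a GENCODE 3′ UTR, against 14.7% over all genes matched to GENCODE. The median count per gene, not corrected for length, was 49 in the cascade and 13 over all genes. Most positions were shallow: 885 of the cascade's positions had a count of 1, 819 a count of 2, and 69 a count of 3 or more. Those 69 were 3.89% of its positions, against 4.45% over all genes.

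Sites in the 3′ UTR were listed for 9 of the 35 genes, or 25.7% (14.2 to 42.1), whereas 17.7% of all protein-coding gene names had one. Those described here are Map4k2, Map4k4, Map3k1, Map3k2, Map3k3, Map2k7, Mapk8 and Mapk14. Any listed 3′ UTR position was present in 20 genes, or 57.1%, against 45.9% of all gene names. Coding sites were listed in 8 genes against 13.1% of all, intron sites in 24 genes against 55.6%, and a 5′ UTR site in 1 gene against 1.13%. As shares of the 35 genes these counts were 22.9%, 68.6% and 2.86%. The background share lay inside the cascade's interval for each of these 5 counts, including the 9 genes with a 3′ UTR site.

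**Figure D1:**
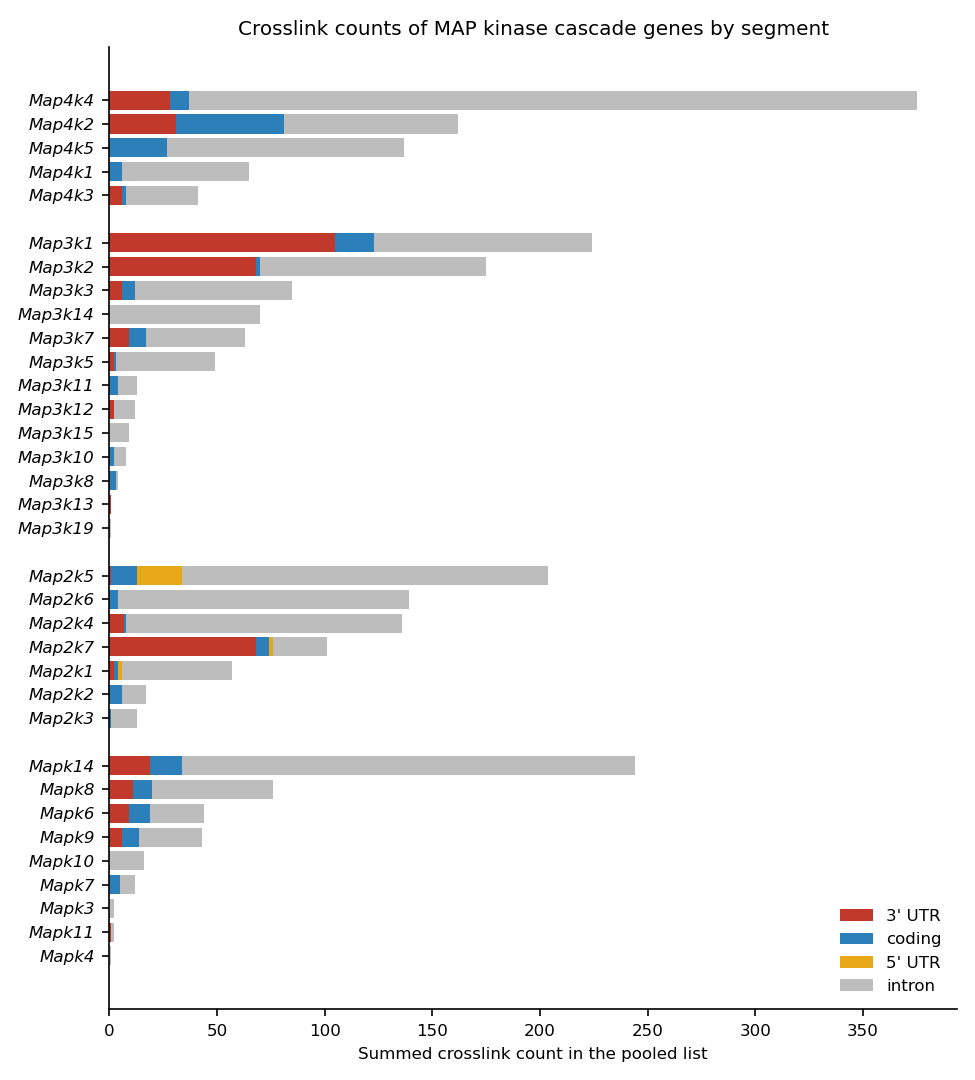
Summed crosslink count of 34 of the 35 genes in the pooled list, ordered by tier and then by count, with the 3′ UTR, coding, 5′ UTR and intron parts of each bar in different colours. Intron counts fill most bars, and the 3′ UTR part is widest for Map3k1 (105 counts), Map3k2 (68) and Map2k7 (68).

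The 3′ UTR counts were concentrated in few genes. Map3k1 alone held 105 of the 410, or 25.6%, and Map3k1, Map3k2 and Map2k7 together held 58.8%. With Map4k2 and Map4k4 the share reached 73.2%. The other end of the range was 15 genes with no listed 3′ UTR position, and 11 genes had listed 3′ UTR positions but no site there. In 3 genes the 3′ UTR count exceeded the intron count: Map3k1, Map2k7 and Map3k13, the last with a single count in all. The share of all gene names with this pattern was not computed, nor was that of genes with 3′ UTR positions but no site.

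Across the 4 tiers the summed counts were close to each other, at 780 for the 5 Map4k genes, 714 for the 13 Map3k genes, 667 for the 7 Map2k genes and 671 for the 10 Mapk genes. The 3′ UTR share was not: it was 8.33% (6.59 to 10.5) in the Map4k tier, 27.0% (23.9 to 30.4) in the Map3k tier, 11.7% (9.47 to 14.4) in the Map2k tier and 11.03% (8.88 to 13.6) in the Mapk tier. The interval of the Map3k tier lay above the other 3 intervals and above the 13.2% of all genes. The difference between tiers was not tested, since the list has no replicates and single genes carry it. The first 3 tiers were therefore also summed without the gene that had the most 3′ UTR counts in each. The share was then 5.5% without Map4k2, 17.96% without Map3k1 and 1.77% without Map2k7. Without both Map3k1 and Map3k2, a choice made after seeing the data, the Map3k tier had 20 3′ UTR counts of 315, or 6.35% (4.15 to 9.60). The share of the median gene was 7.47% in the Map4k tier, 4.08% in the Map3k tier, 0.490% in the Map2k tier and 9.95% in the Mapk tier, so that the typical Map3k gene did not stand above the other tiers. Map2k7 held 87.2% of the Map2k tier's 3′ UTR counts, Map3k1 54.4% of its tier's and Map4k2 47.7% of its tier's.

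**Figure D2:**
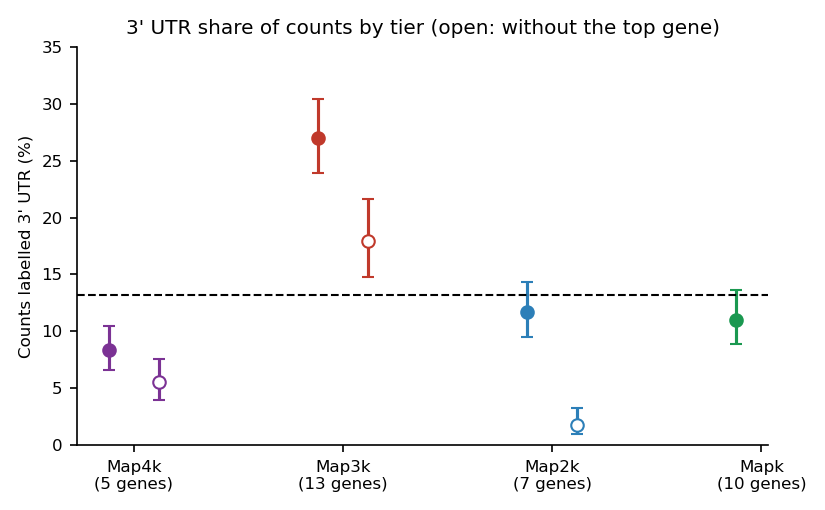
Share of each tier's crosslink counts that carry the 3′ UTR label, in percent, with 95% Wilson intervals as bars; filled points hold all genes of the tier, and open points, for the Map4k, Map3k and Map2k tiers, leave out the gene with the most 3′ UTR counts. The dashed line is the share over all protein-coding genes, 13.2%. The Map3k tier stands above the line with and without Map3k1, though not without both Map3k1 and Map3k2 (6.35%, not drawn), and the Map2k tier falls to 1.77% without Map2k7.

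Per kilobase of annotated 3′ UTR the order of the tiers was another. The Map4k tier held 9.70 counts per kb, the Map2k tier 6.84, the Map3k tier 6.72 and the Mapk tier 2.59, against 5.44 over the cascade and 3.65 over all genes. Without the same top genes the Map4k, Map2k and Map3k tiers had 7.38, 1.09 and 3.35 counts per kb. The median gene had 4.48 counts per kb in the Map4k tier, 2.18 in the Map2k tier, 1.32 in the Mapk tier and 0.185 in the Map3k tier. The median gene of the cascade had 0.820 counts per kb of 3′ UTR, and over all genes the median was 0. Introns held 0.904 counts per kb over the cascade and 0.606 over all genes. In 19 of the 35 genes the 3′ UTR held more counts per kb than the introns. The share of such genes over all gene names was not computed. The summed values over all genes had the same order, with 3.65 counts per kb in 3′ UTRs and 0.606 in introns.

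**Figure D3:**
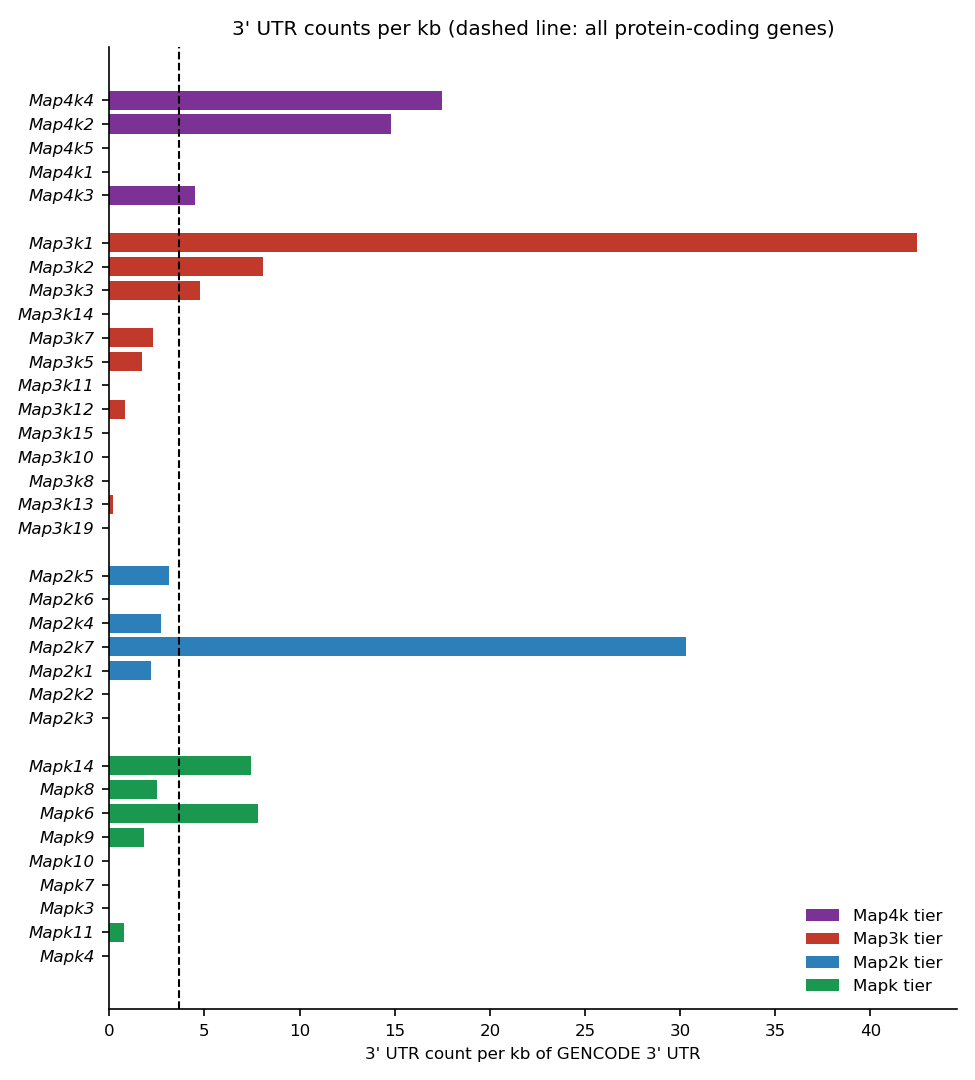
Crosslink counts labelled 3′ UTR per kilobase of the GENCODE 3′ UTR of 34 of the genes, by tier; the dashed line is the value over all protein-coding genes, 3.65 per kb. Map3k1 (42.4) and Map2k7 (30.3) are far to the right of the other genes, followed by Map4k4 (17.5) and Map4k2 (14.8).

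MAP4K genes encode kinases of the STE20 group at the top of the relay. Map4k4 had the highest count of the cascade, 375, which ranked it at place 230 of all protein-coding gene names. Introns held 338 of these counts, 96 of them in 54 sites, and the 3′ UTR held 28 counts, or 17.5 per kb. All 7 of its 3′ UTR sites stood in a single run of 27 nt at chr1:40025385-40025411 (plus strand), with 13 counts and a highest count of 4. Map4k2 had 162 counts, of which 31 lay in the 3′ UTR, 50 were labelled coding and 81 lay in introns. Its introns are short, so that they held 10.3 counts per kb, and its 3′ UTR held 14.8 counts per kb with 9 sites.

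The sequences below, read from GRCm38 on the strand of the gene, show where the 3′ UTR sites of these kinases lay; capitals mark the AU-rich hexamer TATTTA, and the crosslinked base is base 15 of each 30-base run. The Map4k2 run (chr19:6355338-6355367, plus strand) has a site with a count of 2 inside the first of its hexamers. The Map4k4 run (chr1:40025378-40025407, plus strand) holds the site with a count of 4 and no hexamer. The Map4k5 run (chr12:69804775-69804804, minus strand) holds a site with a count of 2.
Map4k2: ccttctagaagTATTTAtgaTATTTAaaga
Map4k4: ttaaagggtcccattttgtttctttgaaag
Map4k5: ttgtaagatagaaTATTTAatcctTATTTA

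The Map4k2 sites fell into a run of 3 inside that hexamer (chr19:6355352-6355354, 5 counts) and a run of 6 further downstream (chr19:6355468-6355492, 10 counts), where the longest run of thymidines near a site was 10. All 4 hexamers of its annotated 3′ UTR had a listed position within 20 nt. Map4k5 had 137 counts and none under the 3′ UTR label. Of its 6 sites labelled coding, 5 lay in the 3′ UTR that GENCODE gives the gene, in a stretch of 36 nt at chr12:69804770-69804805 (minus strand), and all 5 had the hexamer within 20 nt. With the GENCODE segments in place of the deposited label, 9 of its positions were in the 3′ UTR and the number of cascade genes with a 3′ UTR site was 10. Over all genes matched to GENCODE, 34.4% of the sites labelled coding also lay in a 3′ UTR. Map4k1, a kinase of lymphoid and other blood cells also named HPK1, had 65 counts, 59 in introns and 6 under the coding label. Its annotated 3′ UTR is only 152 nt long, and a count of 0 there allows up to 3 counts, or 19.7 per kb. Map4k3 had 41 counts, of which 6 were 3′ UTR counts with no site.

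The MAP3K tier ranged from 1 to 224 counts per gene, with a median of 13. Map3k1, also known as MEKK1, had 224 counts: 105 in the 3′ UTR, 18 under the coding label and 101 in introns. Its 3′ UTR value of 42.4 counts per kb was the highest of the cascade, and the 3′ UTR share of its counts was 46.9% (40.4 to 53.4). It also had the most 3′ UTR sites, 33, with 79 counts, in 4 runs between 442 and 2427 nt into a 3′ UTR of 2475 nt. That 3′ UTR holds no TATTTA.

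The strongest Map3k1 sites lay in stretches of another kind, and both are printed as they read on the minus strand. The first run (chr13:111746808-111746837) has the highest 3′ UTR count of the cascade, 9, at base 15. The next one (chr13:111748447-111748476) has a site with a count of 6 at base 21, inside a run of 31 thymidines.
Map3k1, count 9: aattgtactgtgtaattatttttgtgtttt
Map3k1, count 6: tttgggtttttttttttttttttttttttt

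On this thymidine run and at its edge stood 15 sites with 35 counts within 24 nt (chr13:111748438-111748461). They made up 44.3% of the gene's 3′ UTR site count. The last of them, at chr13:111748438 with a count of 1, is a G just past the thymidines. All 15 lay in soft-masked sequence, that is, in sequence the genome marks as repeated or of low complexity, and how reads that match such a run were placed is nowhere stated in the labels. The stretch with the count of 9 held 9 sites and 26 counts (chr13:111746804-111746833). The other runs of the gene held 6 sites with 12 counts (chr13:111746476-111746500) and 3 sites with 6 counts (chr13:111746872-111746886).

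Map3k2, or MEKK2, had 175 counts, of which 68 lay in the 3′ UTR, 105 in introns and 2 under the coding label. Its 3′ UTR is long, 8406 nt, so that it held 8.09 counts per kb. Listed positions were spread from 158 to 8131 nt into it, whereas all 9 sites lay between 158 and 424 nt. Of these 9 sites, 8 had the hexamer within 20 nt. The 3′ UTR has 11 hexamers, and 4 of them had a listed position within 20 nt. Map3k3, or MEKK3, had 85 counts with 6 in the 3′ UTR, where 2 neighbouring sites with 4 counts (chr11:106155376-106155378, plus strand) had no hexamer nearby.

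**Figure D4:**
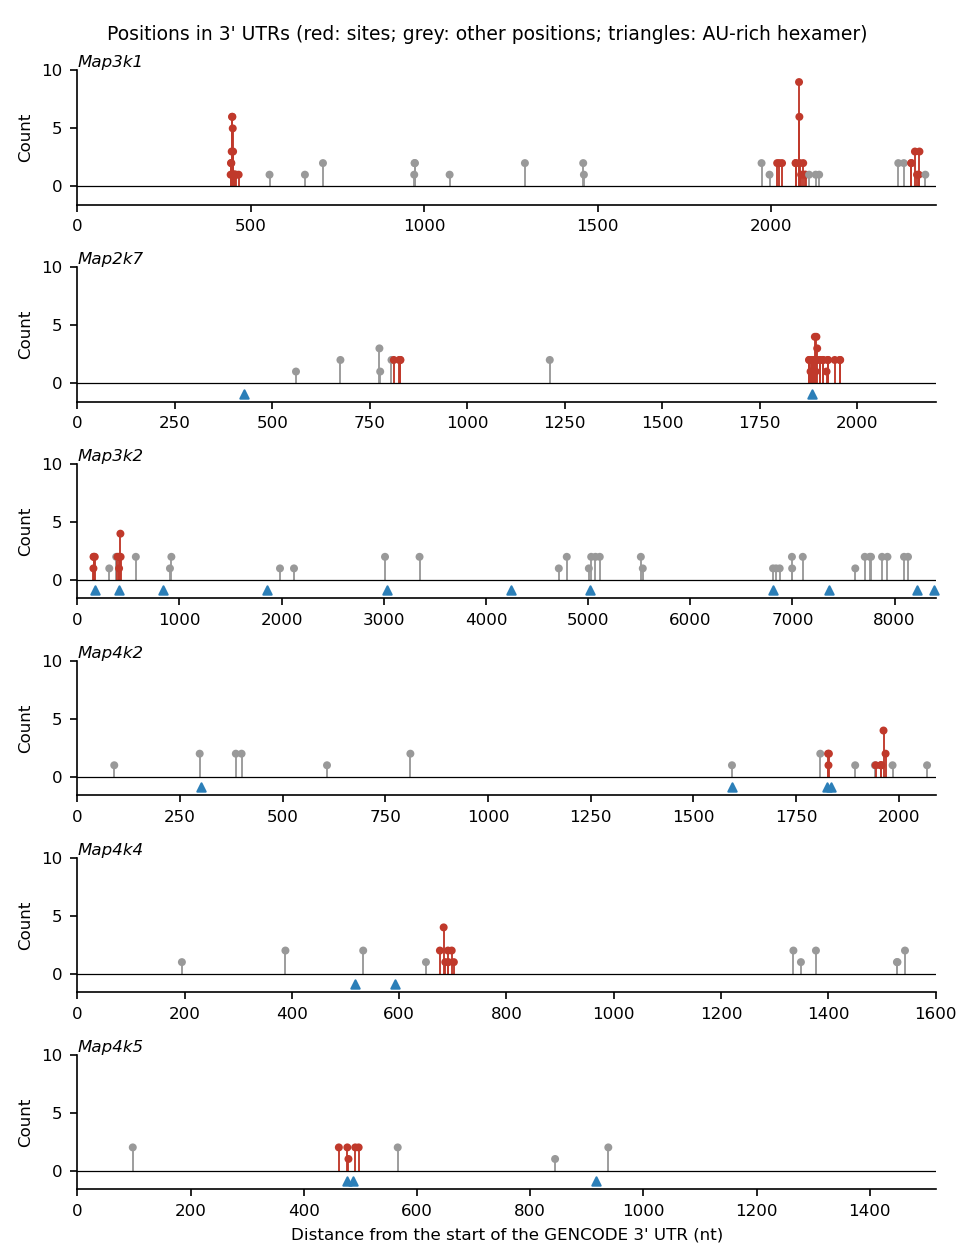
Crosslink count at each listed position along the GENCODE 3′ UTR, in nt from its start, for Map3k1, Map2k7, Map3k2, Map4k2, Map4k4 and Map4k5; red stems are sites, grey stems other positions, and blue triangles AU-rich hexamers. The Map4k5 positions carry the coding label in the deposited list. Map3k1 has 4 runs of sites and no triangle, and the sites of Map3k2 stand in the first 424 nt.

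The other MAP3K genes had no 3′ UTR site. Map3k7 encodes TAK1, a kinase downstream of cytokine and antigen receptors, and had 63 counts with 9 in the 3′ UTR. Map3k5, or ASK1, a stress-activated kinase, had 49 counts with 2 there, and Map3k12 had 12 with 2 there. Map3k14 encodes NIK, the kinase of the non-canonical NF-κB pathway. All 70 of its counts lay in introns, and 33 of them stood in a stretch of 52 nt (chr11:103251416-103251467, minus strand) with 8 sites. The site with the highest count there, 11, is base 15 of the run printed next (chr11:103251452-103251481), which is rich in C and T and has no hexamer.
Map3k14 intron: actacctcctcttctttctcttcctcttct

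Map3k8, Map3k10, Map3k11 and Map3k15 had 4, 8, 13 and 9 counts and none under the 3′ UTR label. The 3 counts of Map3k8 with the coding label lay in its GENCODE 3′ UTR. Map3k13 and Map3k19 were each listed by 1 position with a count of 1.

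MAP2K genes encode the dual-specificity kinases that phosphorylate MAP kinases. Map2k7, or MKK7, which acts on JNK, had 101 counts, and 68 of them lay in the 3′ UTR. This share, 67.3% (57.7 to 75.7), was far above those of the other MAP2K genes, the highest of which was 5.15%, for Map2k4. The gene also had 2 sites labelled coding, with 3 counts (chr8:4247666-4247672), in a GENCODE coding exon that overlaps the annotated 3′ UTR. The segment there depends on the transcript. The 3′ UTR of Map2k7 held 30.3 counts per kb and 27 sites with 56 counts. A run of 50 nt (chr8:4247571-4247620, plus strand) held 20 of these sites with 42 counts, or 75% of the site count. The hexamer lay within 20 nt of 14 of the 20.

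The stretch is printed from chr8:4247572 to chr8:4247601, with the hexamer in capitals and, as base 15, 1 of its sites with a count of 4. The remaining 3′ UTR sites of the gene stood in a run of 4 upstream and a run of 3 downstream, with no hexamer within 20 nt. Below it is the only 5′ UTR place with sites in the cascade, in Map2k5 (chr9:63377363-63377392, minus strand), where the site is base 9 and the hexamer starts 15 nt downstream of it.
Map2k7: tattttTATTTAactttattttctgtgtgt
Map2k5, 5′ UTR: cttctccccatcttcttgctcccTATTTAt

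Map2k5, or MEK5, which acts on ERK5, had the highest count of its tier, 204. Introns held 170 of these, and the 3′ UTR 1. The 5′ UTR held 21, of which 19 lay in 3 sites within 4 nt (chr9:63377381-63377384) and 15 at the printed base. That base had the highest count of any position in the cascade.

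The other MAP2K genes had no site in either UTR. Map2k6 and Map2k4, which encode the p38 kinase kinase MKK6 and the JNK and p38 kinase kinase MKK4, had 139 and 136 counts, with 135 and 128 in introns. Map2k4 had 7 counts in the 3′ UTR and Map2k6 none under that label. Map2k1, or MEK1, had 57 counts, with 2 in the 3′ UTR, 2 under the coding label, 2 in the 5′ UTR and 51 in introns. Map2k2, or MEK2, had 17 counts with 11 in introns and 6 under the coding label. Map2k3, or MKK3, had 13 with 12 in introns and 1 under the coding label.

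The MAP kinases themselves ranged from 1 to 244 counts per gene. Mapk14, which encodes p38α, had 244, with 19 in the 3′ UTR, 15 under the coding label and 210 in introns. Mapk8, which encodes JNK1, had 76, with 11 in the 3′ UTR, 9 under the coding label, all in other exons of GENCODE, and 56 in introns. Their 3′ UTRs held 7.42 and 2.49 counts per kb, both well under the values of Map3k1 and Map2k7. The 3′ UTR sites numbered 4 in Mapk14 with 6 counts and 2 in Mapk8 with 4 counts.

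Mapk3, which encodes ERK1, had a single intron position with a count of 2, and none in its 3′ UTR of 694 nt, which allows up to 3 counts, or 4.32 per kb. Fewer Mapk3 transcripts and fewer crosslinks per transcript cannot be told apart here.

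Both Mapk8 sites had the hexamer within 20 nt, and none of the Mapk14 3′ UTR sites did. The printed runs contrast the Mapk8 place (chr14:33381787-33381816, minus strand, count 2 at base 15) with the Mapk14 3′ UTR place (chr17:28746463-28746492, plus strand, count 2 at base 15), which is a repeat of G and T. Below them is a Mapk14 intron place (chr17:28727078-28727107, plus strand, count 10 at base 15) made of hexamers in tandem.
Mapk8: atatatcatgaatTATTTAagatgtttata
Mapk14: gtatgtgttagtgtttgtgtgtgtgtgtgt
Mapk14 intron: ttTATTTATTTATTTATTTATTTATTTAtt

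This intron stretch held 18 sites with 62 counts within 33 nt (chr17:28727084-28727116), all with the hexamer within 20 nt and all in soft-masked sequence. It was 50% of the intron site count of Mapk14. A further 16 sites with 30 counts lay within 46 nt elsewhere in its introns (chr17:28695820-28695865), 9 of them with the hexamer. Mapk14 thus held 30 of the 64 intron sites of the cascade that had the hexamer, or 46.9%.

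Of the remaining MAP kinases, Mapk6, the atypical ERK3, had 44 counts with 9 in the 3′ UTR and 7.81 per kb, with no 3′ UTR site. Mapk9, which encodes JNK2, had 43 counts with 6 in the 3′ UTR. Mapk10, which encodes JNK3, had 16, all in introns, and 10 of them at 1 position (chr5:103009055). Mapk7, which encodes ERK5, had 12 counts with 7 in introns and 5 under the coding label. Mapk4 and Mapk11 were listed by 1 and 2 positions, with a count of 1 each.

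Over the whole cascade, 27 of 100 3′ UTR sites had TATTTA, read on the strand of the gene, wholly within 20 nt of the site. This share, 27.0% (19.3 to 36.4), had an interval that held the 28.9% found over all 16591 3′ UTR sites. The 27 sites came from 4 genes: 14 from Map2k7, 8 from Map3k2, 3 from Map4k2 and 2 from Mapk8. Without Map3k1, which has no hexamer to be near, the share was 40.3%. The 28.9% over all genes keeps the genes without a hexamer, so it is no match for this value. A run of 8 or more thymidines without the hexamer was near 21 sites, against 17.1% over all genes, and 15 of the 21 were in Map3k1. Neither feature was near 52 sites, against 54.1% over all genes. The base of the site was T at 70 of the 100, and this share was not computed over all genes. Of the same 100 sites, 74 lay in soft-masked sequence, against 59.5% of 3′ UTR sites over all genes. With soft-masked positions left out, 8 genes kept a 3′ UTR site and the 3′ UTR share of the cascade was 12.4%.

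**Figure D5:**
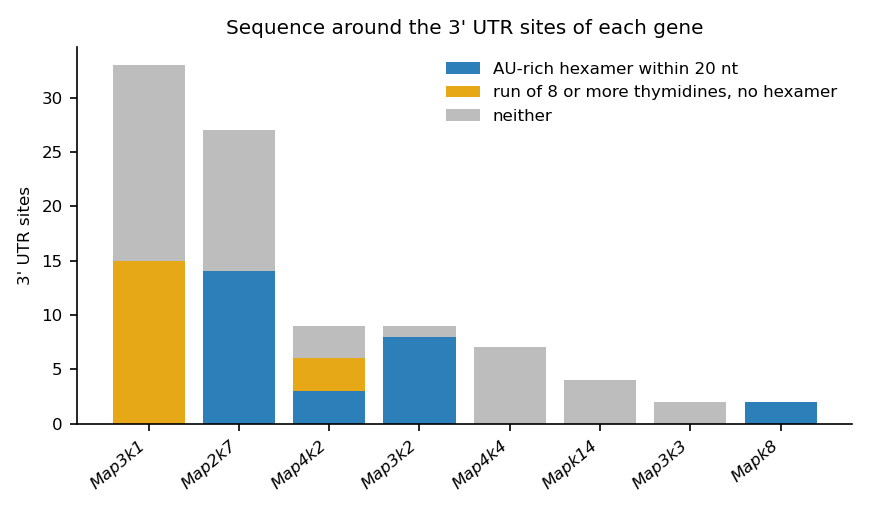
Number of 3′ UTR sites in 8 of the 9 genes that have one, split by the sequence within 20 nt of the site: the AU-rich hexamer, a run of 8 or more thymidines without the hexamer, or neither. The hexamer class is found in Map2k7, Map4k2, Map3k2 and Mapk8, and the thymidine class in Map3k1 and Map4k2.

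Among intron sites of the cascade, 64 of 325 had the hexamer, or 19.7% (15.7 to 24.4), against 22.1% over all genes. The hexamer is present in the annotated 3′ UTR of 24 of the 35 genes, or 68.6%, against 52.5% of 12265 genes, and the median 3′ UTR was 1517 nt long in the cascade and 1304 nt over all genes. Of the 58 hexamers in the cascade, 19 had a listed position within 20 nt, or 32.8%, against 19.4% over all genes. Limited to genes with a listed position in the GENCODE 3′ UTR, it was 19 of 49, or 38.8%, against 29.2%. Neither pair was matched for the count per gene, and the difference was not tested. Mapk10 has 6 hexamers and no listed 3′ UTR position. A hexamer match describes letters in the sequence, not a binding event.

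The order of the genes followed their sizes in part. Over the 35 genes, Spearman's rho was 0.50 between 3′ UTR count and 3′ UTR length, 0.37 between intron count and total intron length, and 0.54 between 3′ UTR count and intron count. All genes share the same pooled libraries, and these values are descriptions with no test.

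Other genes of the pathway, from lists of names, showed sites at several levels. Among RAF and other kinases that act at the MAP3K level, 7 of 8 genes were listed and 4 had a 3′ UTR site, led by the TAO kinase genes Taok1 (37 sites), Taok2 (14) and Taok3 (13). Among kinases close to the MAP4Ks, 8 of 9 were listed and 3 had one, and Stk4, which encodes the Hippo pathway kinase MST1, had 197 counts in 23 3′ UTR sites. In the RAS input of T cells 9 of 15 listed genes had one, among them Rasgrp1 (19 sites), Rasa2 (11) and Lat (10). Scaffolds and adaptors had one in 5 of 17 listed genes. Kinases activated by MAP kinases had one in 1 of 11, Rps6ka5 (5 sites). Transcription factors that MAP kinases phosphorylate or induce had one in 11 of 16 listed genes, with 22 sites in Mef2d, 18 in Mef2a and 16 in Elk1. All 16 Elk1 sites had the hexamer within 20 nt. These shares read against the 17.7% of all gene names.

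The labelled cell type was checked on marker names. Of 11 thymocyte markers 10 were listed, with counts from 67 to 3281 and a median of 302, whereas Ptcra was not. The listed markers of B cells had counts of 1 to 2, of myeloid cells 2 to 16, of erythroid cells 2 to 5 and of thymic epithelium 1 to 6. In the markers of stroma and endothelium the counts ran from 3 to 301, the highest being Pecam1. The part of other cells in the cascade's counts was not tested.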

How the data were processed

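Reads were 100 nt long, single end, per the labels' protocols. The submitters' processing notes name Bowtie, with no version, and GRCm38. The deposited table gives each position a whole-number score, negative on the minus strand and headed as counts by the authors, a further score summed over neighbours that was not used here, a p-value that was not used as a test, and an FDR, treated as a score since some of its values exceed 1. Whether the authors collapsed reads by random barcode: not given in the sources used here.

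Absolute scores were summed by gene and deposited segment label with pandas 2.3.3. Positions count from 0 in the table and are printed from 1 on GRCm38. Lengths and alternative segments came from GENCODE vM21, and sequence from the RefSeq copy of the same build. Neighbouring sites at most 15 nt apart formed a run. For printing, the site with the highest count of each kind of place was taken, 30 bases long. Sums, windows and runs were tested on simulated data, with 0 wrong of 3 checks.

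The cascade genes and the lists were chosen with earlier results of these data known. Named are every gene with a 3′ UTR site, the 3 genes of each tier with the highest summed count, all Map2k genes, and at most 3 genes of each related list; the remaining cascade genes are added with their counts, and 1 gene is in the sums but not reported here by name. GENCODE has 43 genes with such names: 6 had no listed position, and 2 stand under another name and were left out, Map3k20 as Zak (28 counts, 2 3′ UTR sites) and Map3k4 with its identifier appended (45 counts, no 3′ UTR site). Total counts per library are unknown. Alternatives changed the FDR limit, the weighting, the segment source, the hexamer window, the masking and the genes included.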

Additional observations from a re-analysis of the deposited data

How the results depend on the processing

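The list has no replicates, its depth per library is unknown, and most positions have a count of 1 or 2, so each value describes this list only. Of the alternative values 18 stayed within 1.5 times a reported count or inside the interval of a reported share, and 18 did not. The number of genes with a 3′ UTR site stayed between 7 and 10 under 6 alternatives, among them Map3k4 added, which was chosen after seeing the data, and was 20 with all listed positions. At a count of 3 or more it was 7 (20%, 10.04 to 35.9) against 9.58% of all gene names. Without soft-masked positions it was 8 (22.9%, 12.1 to 39.0) against 11.7%. In both the background lay below the interval, unlike at the main setting. With GENCODE segments it was 10 (28.6%, 16.3 to 45.1) against 20.2%. At an FDR below 0.01 it was 9 (25.7%, 14.2 to 42.1) against 16.8%. There the background lay inside the interval, as at the main setting. The 3′ UTR share of the cascade was 13.2% with each position weighing 1, 22.4% over sites alone, 24.6% over positions with a count of 3 or more, and 12.4% without soft-masked positions. Sites of the cascade held 208 counts in 3′ UTRs, 50 under the coding label, 19 in 5′ UTRs and 650 in introns. Over all genes these were 42318, 14951, 1501 and 183317. Shares over sites alone, here and by tier below, therefore do not compare with the 13.2% over all counts of all genes. Weighing each position as 1 gave the Map3k tier 22.8% and the Map2k tier 9.22%. Over sites alone the tiers had 10.5% (Map4k), 44.9% (Map3k), 32.6% (Map2k) and 8.75% (Mapk), so that the Map2k tier came next after the Map3k tier. GENCODE segments gave the Map4k tier 10.5%. Without the gene of the highest summed count the Map3k tier had 17.96% (without Map3k1; 6.35% without Map3k2 also) and the Map2k tier 16.6% (without Map2k5). The share of 3′ UTR sites near TATTTA was 16% with a window of 10 nt, 15.8% over all listed positions and 40.3% without Map3k1. No share over all genes under the same settings is given for these values. No paired analysis was possible because the list has no column per library.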

Other observations

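Sorted by the MAP kinase branch that the textbook assigns them, a grouping made after the values were seen, 3 of the branches are described. The JNK branch, 5 genes of the Map2k and Mapk tiers, had 372 counts and a 3′ UTR share of 24.7%, with 29 3′ UTR sites, of which 27 were in Map2k7. Without Map2k7 it had 24 3′ UTR counts of 271, or 8.86% (6.02 to 12.8). Map2k4, which also acts on p38, was counted here only. The p38 branch, 4 genes, had 398 counts and a share of 5.03%, with 4 sites in Mapk14. The ERK5 branch, Map2k5 and Mapk7, had 216 counts and a share of 0.463%. The differences were not tested.

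Several intron places of the cascade held more counts than most of its 3′ UTR places. A stretch of 29 nt in Map4k5 (chr12:69843509-69843537, minus strand) had 8 sites with 26 counts, 7 of them with TATTTA within 20 nt. A stretch of 34 nt in Map2k4 (chr11:65705668-65705701, minus strand) had 10 sites with 20 counts, 7 of them with it. In Map4k1 10 sites with 15 counts stood within 13 nt (chr7:28984707-28984719, plus strand), near a run of 40 thymidines. In Map4k2 5 sites with 17 counts stood within 28 nt (chr19:6344655-6344682, plus strand), with no TATTTA near.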
